A study of Mus musculus with 22 samples.

Results

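The anaphase-promoting complex or cyclosome (APC/C) was followed through 10 genes, Anapc1, Anapc2, Anapc4, Anapc5, Anapc7, Anapc10, Cdc16, Cdc23, Cdc27 and Cdc20, out of 10516 genes measured. They were taken by name, with Anapc5 at the centre because its translation efficiency (TE, footprint density on the coding sequence divided by RNA density on the same sequence) fell further after Denr knockdown than that of any other gene. Anapc5 was thus chosen by its TE change between knockdown and control lysates, and the others by their place in the complex. All 10 were present in the data. The first 9 are structural or catalytic subunits, whereas Cdc20 is not a core subunit but a coactivator that docks on the complex in mitosis. For Anapc5 every value of the knockdown against control contrast is therefore a description and carries no test, while the 9 other genes were tested in a fit over all genes.

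The cells were NIH3T3, an immortalised line of mouse embryonic fibroblasts, transduced with lentiviral shRNAs and selected as populations, so that the controls also carried a vector and an shRNA. Denr shRNA1 and Denr shRNA2 target Denr in 3 lysates each, and the controls were scramble shRNA in 3 lysates and Gfp shRNA in 2 lysates. Each of the 11 lysates, treated with cycloheximide at 100 µg/ml for 2 min, gave a library of ribosome-protected fragments (RPF-seq) and a total RNA library (RNA-seq). The sources describe the harvest both as subconfluent and as confluent, and the replicates as biological, with 1 dish each. Whether each dish was transduced separately is not stated in the sources used here, and p-values measure the spread between these lysates. The question was which transcripts need DENR for translation of their main coding sequence.

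The APC/C is a large ubiquitin ligase that marks securin and the mitotic cyclins for destruction and so lets cells separate their chromatids and leave mitosis. Its platform subunits (Anapc1, Anapc4, Anapc5) join a catalytic cullin module (Anapc2, with the substrate receptor Anapc10) to an arch of tetratricopeptide repeat subunits (Cdc16, Cdc23, Cdc27, Anapc7), on which coactivators such as Cdc20 dock. DENR, with its partner MCTS1, helps ribosomes to start again at a downstream AUG after they have translated a short upstream open reading frame (uORF) in the 5′ UTR.

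Because of this role of DENR, the uORFs of the 10 transcripts are shown first. The transcript model with the 5′ UTR length recovered from the deposited values was read for each gene (GENCODE sequences, GRCm38), and every ATG in the 5′ UTR that opens a frame of at least 9 nt with a stop codon was listed. Of the 6071 genes for which such a transcript was found, 47.1% had at least 1 uORF and 39.0% had one that ends before the coding sequence. Anapc5, Anapc1, Anapc10, Cdc20 and Cdc27 had at least 1, and Anapc2, Anapc4, Anapc7, Cdc16 and Cdc23 had none. Starts at CTG, GTG or TTG were not searched, so none here means no uORF that opens with ATG. The coding sequence of the transcript read differed from the recovered length in Anapc1 (5832 against 5901 nt) and Cdc27 (2475 against 2493 nt). It also differed in Anapc4 (2421 against 2432 nt) and Cdc23 (1791 against 1799 nt). For these genes the choice of transcript rests on the 5′ UTR length alone. The sequences below run 5′ to 3′ in the sense of the transcript. Capitals mark the ATG and, where the frame is shown whole, its stop codon.
Anapc5 uORF: gcagccATGgcgTAA
Anapc5 coding sequence start: agcccgATGatga
Anapc1 first uORF: tccaagATGgctccagccattTGA
Anapc1 uORF overlapping the coding sequence, start: gaaataATGttcata
Anapc10 first uORF: attgtcATGgcatggTAG
Cdc27 uORF, start: gtttaaATGagccgg
Cdc20 uORF, start: gccaATGaacgct

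The Anapc5 5′ UTR (189 nt) held a single ATG, at nucleotide 97, and it opened a uORF of 9 nt, that is 2 codons and a stop. It lies in the first exon at chr5:122821235-122821243, minus strand, within the gene at chr5:122787459-122821339. This ATG has G at -3 and G at +4, bases preferred around mammalian start sites. Around the ATG of the coding sequence these positions hold C (-3) and A (+4). From the uORF stop codon to the coding sequence there were 84 nt, and the uORF was present in all 6 protein-coding Anapc5 transcripts with a complete 5′ end. A contained uORF of 9 nt was found in 4.28% of the 6071 genes.

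Anapc1 (5′ UTR of 263 nt) held 3 uORFs, of 18, 33 and 36 nt. The first lies at chr2:128687346-128687363, minus strand, and the one furthest downstream, at chr2:128686020-128686055, runs into the coding sequence. Anapc10 (85 nt) had 3 uORFs of 12, 33 and 30 nt that end before the coding sequence, and the one of 33 nt overlaps both others. The first of them lies at chr8:79713115-79713126, plus strand. Cdc27 had 1 uORF of 69 nt that ends 9 nt before its coding sequence, at chr11:104550399-104550467, minus strand. Cdc20 had 1 uORF of 51 nt that opens 5 nt from its transcript start, at chr4:118437298-118437348, minus strand.

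Denr, the targeted gene, was low in every knockdown lysate. Its RNA was 40.5 ± 5.32 RPKM (reads per kilobase of sequence, scaled to library size; SD, n = 3) with shRNA1 and 17.9 ± 2.70 RPKM (n = 3) with shRNA2, or 22.5% and 9.90% of the control mean of 180.5 RPKM. RPF-seq libraries held 10927111 to 21649561 reads on coding sequences and 5′ UTRs and RNA-seq libraries 8513812 to 20109167. All 8 fibroblast markers looked up were present, with a summed RNA level of 5469.8 to 6597 RPKM over the 11 lysates. Of the epithelial, endothelial and immune markers, 2 of 10 were in the data, Cdh1 at 2.74 to 4.05 RPKM and Cdh5 at 0.544 to 1.10 RPKM.

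Among the 10 genes Anapc5 had the highest RNA level and the lowest TE in control cells. Its RNA level was 461 ± 24.6 RPKM (SD, n = 5), above that of 97.1% of all genes. The 8 other core subunits lay between 24.2 ± 3.54 RPKM for Anapc2, the cullin, and 88.1 ± 24.5 RPKM for Cdc27. Control log2 TE of Anapc5 was -2.80 ± 0.0980, which was lower in only 1.25% of genes. The next lowest was Anapc1, the largest platform subunit, at -1.24 ± 0.0330.

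The order of control log2 TE went on upwards through Cdc16, the arch subunit, at -0.52, the platform subunit Anapc4 at -0.05, Cdc23 at 0.01 and Cdc27 at 0.04. It ended with Anapc7 at 0.51, Anapc10 at 0.59, Cdc20 at 0.64 and Anapc2 at 2.00, the last above 99.2% of all genes. The control ranges of Anapc5, Anapc1, Cdc16 and Anapc2 overlapped with no neighbour in this order. Those of Anapc4, Cdc23, Cdc27, Anapc7 and Anapc10 each overlapped with the next upwards, which for Anapc10 was Cdc20. Anapc10 RNA may share reads with the processed pseudogene Gm15530, which matches 99.6% of its coding sequence at 97.3% identity, and the exons of Cdc23 and Cdc20 overlap genes on the opposite strand (Kif20a and Elovl1).

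High RNA and low TE together placed Anapc5 among its partners in the density of footprints on the coding sequence (CDS). In control lysates this was 66.3 ± 2.55 RPKM (SD, n = 5), inside the range of the 8 other core subunits, from 30.4 ± 1.26 RPKM for Anapc1 to 96.0 ± 4.38 RPKM for Anapc2. Relative to the median of those 8 genes in the same lysate, Anapc5 stood at 8.30 ± 0.503 times in RNA and at 1.24 ± 0.129 times in CDS footprints. Cdc20 lay far above all core subunits with 512 ± 65.5 RPKM of footprints.

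**Figure D1:**
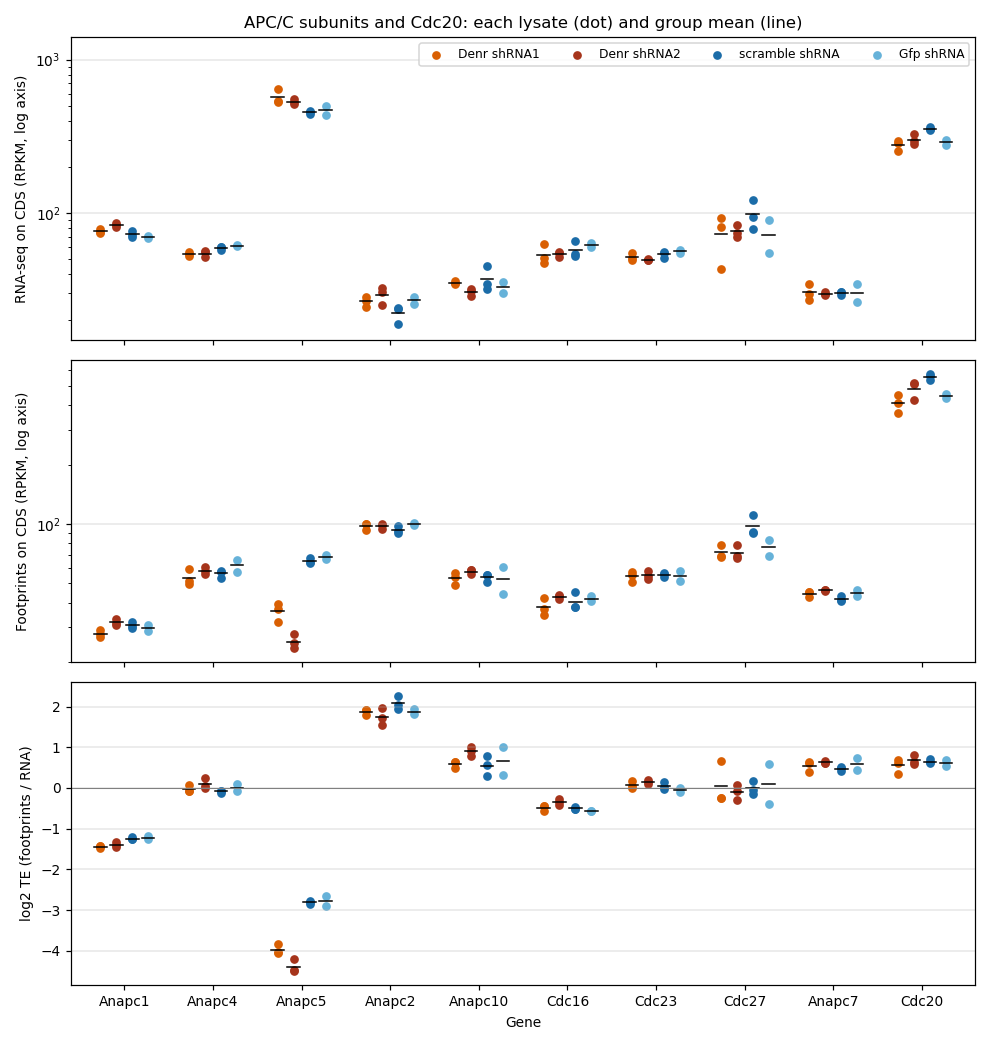
RNA density (top), footprint density (middle) and log2 TE (bottom) of the 10 genes, with 1 dot per lysate, colours for the 4 shRNAs and a line at each group mean; the upper axes are logarithmic in RPKM. Anapc5 stands apart with an RNA level of 439 to 643 RPKM in all lysates, and its footprints and TE are lower in the 6 Denr shRNA lysates than in the 5 control lysates.

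After Denr knockdown the CDS footprints of Anapc5 stood at 0.457 of the control level while its RNA was not lower. With Denr shRNA1 its CDS footprints were 39.4, 37.0 and 32.0 RPKM, and with Denr shRNA2 24.98, 27.7 and 23.5 RPKM. Scramble shRNA gave 63.5, 64.1 and 67.2 RPKM and Gfp shRNA 66.7 and 69.8 RPKM. The groups did not overlap, as in the same direction in 1.97% of genes, and within the knockdown lysates all 3 of shRNA2 lay below all 3 of shRNA1.

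Anapc5 RNA was 643, 527 and 534 RPKM with shRNA1 and 555, 510.4 and 531 RPKM with shRNA2. It was 460.5, 446 and 457 RPKM with scramble shRNA and 502 and 439 RPKM with Gfp shRNA. Every knockdown lysate thus lay above every control lysate in RNA, as in 2.63% of genes, in the direction opposite to the footprints. Shifted in this way, log2 TE ranged from -4.50 to -3.83 in the knockdown lysates and from -2.91 to -2.65 in the control lysates.

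On the log2 scale (0.1 RPKM added to each value) the differences of Anapc5 were -1.38 (SE 0.13) for TE, -1.13 (SE 0.12) for CDS footprints and 0.25 (SE 0.07) for RNA. These values chose the gene and were not tested. TE of the gene ranked next, Klhdc8a, changed by -1.27 and that of the gene after it, Samd10, by -1.09. As background, 50 of 10516 genes (0.475%) were called lower in TE and 0 higher with limma (Benjamini-Hochberg adjusted p below 0.1, the call rule throughout), and 1.32% of genes had every knockdown lysate below every control lysate.

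None of the 9 other genes was called for TE. Their log2 TE changes ran from -0.19 for Anapc2 to 0.16 for Anapc10, with a median of 0.08 beside -0.01 over all genes, and 4 were negative and 5 positive. By limma, 1 of the 9 had an unadjusted p below 0.05, and limma-voom on reads recovered from the RPKM values called 0 of 9 as well.

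That gene was Anapc1, whose TE changed by -0.18 (SE 0.07, limma adjusted p = 0.556). Its log2 TE was -1.43, -1.47 and -1.43 with shRNA1 and -1.41, -1.46 and -1.33 with shRNA2. It was -1.26, -1.26 and -1.21 with scramble shRNA and -1.19 and -1.26 with Gfp shRNA. The groups did not overlap, as in the same direction in 1.32% of genes, Anapc5 among them, but the change did not pass the adjusted test. Anapc2, the subunit with the highest TE, changed by -0.19 (SE 0.10, limma adjusted p = 0.846), and its groups overlapped (1.54 to 1.97 in knockdown and 1.82 to 2.26 in control lysates).

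The platform partner Anapc4 changed in TE by 0.08 (SE 0.07). In the arch, Cdc16 changed by 0.11 (SE 0.07), Cdc23 by 0.10 (SE 0.07), Anapc7 by 0.08 (SE 0.08) and Cdc27 by -0.06 (SE 0.20). Anapc10 changed by 0.16 (SE 0.14) and the coactivator Cdc20 by -0.02 (SE 0.08). None of these 7 reached an unadjusted p below 0.05 in limma. Cdc27 had the largest SE of the 9, and its RNA was lowest in replicate 1 of each shRNA (43.5, 70.3, 79.2 and 55.1 RPKM with shRNA1, shRNA2, scramble and Gfp shRNA).

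**Figure D2:**
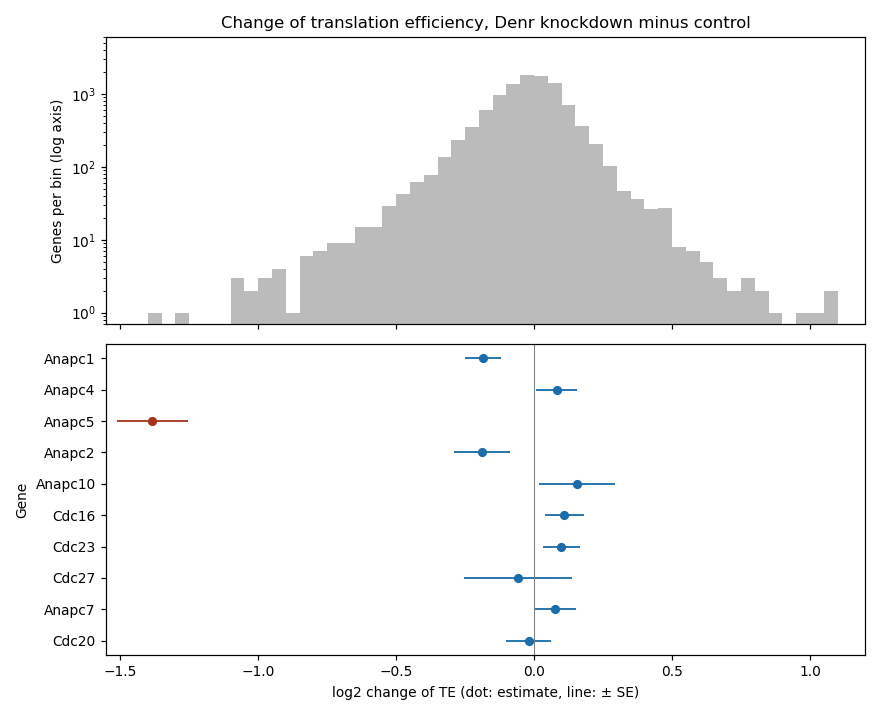
Top, number of genes per bin of 0.05 in log2 TE change (knockdown minus control; logarithmic count axis) over 10516 genes; bottom, the change of each of the 10 genes with its standard error. Anapc5 lies at -1.38, at the left edge of all genes, and the 9 others lie between -0.19 and 0.16.

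In CDS footprints 1 of the 9 other genes, Cdc27, was called lower, where 4.55% of all genes were called lower and 5.47% higher. Cdc27 footprints were 69.2, 67.7 and 78.7 RPKM with shRNA1 and 67.1, 68.6 and 78.7 RPKM with shRNA2. Scramble shRNA gave 89.6, 91.2 and 111 RPKM and Gfp shRNA 83.5 and 68.7 RPKM. The lowest control lysate thus lay inside the knockdown range.

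The change of Cdc27 footprints was -0.30 (SE 0.10, limma adjusted p = 0.0997), at the edge of the threshold. The call was lost when any 1 lysate except Gfp shRNA replicate 2 was left out (adjusted p = 0.101 to 0.196), and with either Denr shRNA alone. Cdc27 RNA changed by -0.24 (SE 0.20, limma adjusted p = 0.614). Cdc20 footprints ranged from 363 to 518 RPKM (median 437) after knockdown and from 433 to 578 RPKM in controls, a change of -0.20 (SE 0.10, adjusted p = 0.254).

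The changes of the 7 remaining genes in CDS footprints ran from -0.07 for Anapc4 to 0.07 for Anapc7, and none was called. Anapc2, for example, had 93.2 to 101 RPKM (median 99.1) in knockdown lysates and 90.4 to 101 RPKM (median 98.1) in control lysates. Anapc1 had 26.9 to 33.1 RPKM (median 29.9) against 28.6 to 32.0 RPKM (median 30.4). Anapc5 moved from the fourth place among the 10 genes in control cells to the ninth after knockdown, where its range of 23.5 to 39.4 RPKM overlapped with those of Anapc1 and Cdc16. Relative to the median of the 8 other core subunits its footprints stood at 0.570 ± 0.142 times (SD, n = 6) and its RNA at 10.9 ± 1.14 times. The footprint ratio was 0.687 ± 0.0824 (n = 3) with shRNA1 and 0.453 ± 0.0504 (n = 3) with shRNA2. Within a lysate, 6 to 7 of those 8 subunits lay above Anapc5 in footprints with shRNA1, and all 8 with shRNA2.

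In RNA none of the 9 other genes was called (3.55% of all genes were, 91 lower and 282 higher), and limma-voom also called 0. Anapc4 RNA lay between 51.5 and 56.4 RPKM (median 54.7) after knockdown and between 57.8 and 61.8 RPKM (median 60.5) in controls. Its groups did not overlap, as in 1.04% of genes, and it changed by -0.15 (SE 0.06, limma adjusted p = 0.198). Anapc1 RNA changed by 0.16 (SE 0.06, limma adjusted p = 0.228). These were the 2 with an unadjusted p below 0.05. Across the 9 genes the median RNA change was -0.11, with 7 negative, beside 0.03 over all genes.

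Anapc5 footprints also differed between the Denr shRNAs. This difference was not used to choose the gene and could be tested. CDS footprints of Anapc5 were lower with shRNA2 (25.4 ± 2.13 RPKM, SD, n = 3) than with shRNA1 (36.1 ± 3.74 RPKM, n = 3), by 0.51 on the log2 scale (SE 0.08). The limma adjusted p was 0.00392, in a comparison where 9.69% of genes were called. None of the 9 other genes was called there, the nearest being Anapc1, higher with shRNA2 by 0.19 (SE 0.07, limma adjusted p = 0.133).

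Anapc5 RNA did not pass the test between the Denr shRNAs (-0.09, SE 0.10, adjusted p = 0.734, with 2.06% of genes called). TE was lower with shRNA2 by 0.42 (SE 0.14, unadjusted p = 0.0125), but the limma adjusted p was 0.972. In that comparison 0 of 10516 genes (0.0%) were called by limma, with 392 at an unadjusted p below 0.05. Denr RNA was also lower with shRNA2 than with shRNA1, and whether the 2 differences are related was not tested.

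Between the control shRNAs Anapc5 TE was -2.81 ± 0.0467 (SD, n = 3, scramble) and -2.78 ± 0.182 (n = 2, Gfp), a difference of 0.03 (SE 0.16, limma adjusted p = 0.9998). Here too 0.0% of genes were called, with 233 at an unadjusted p below 0.05.

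**Figure D3:**
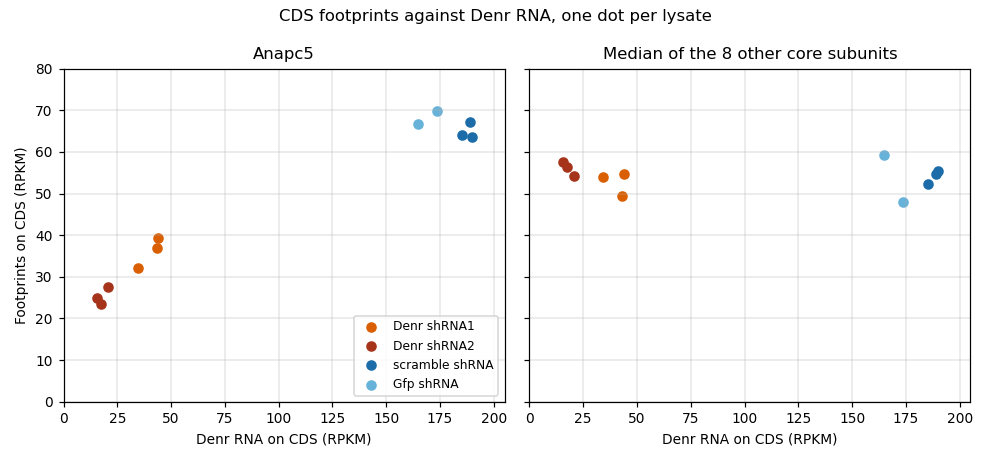
Footprint density on the CDS against Denr RNA density, both in RPKM on linear axes, with 1 dot per lysate and colours for the 4 shRNAs; left, Anapc5, right, the median of the 8 other core subunits. Anapc5 lies at 23.5 to 27.7 with shRNA2, 32.0 to 39.4 with shRNA1 and 63.5 to 69.8 in controls, while the median of the others stays between 48.0 and 59.2.

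Ribosomes were also counted on the 5′ UTRs. A gene was covered when its 5′ UTR had at least 20 footprint reads in at least 9 of the 11 libraries, which held for 5175 genes and for 6 of the 10, namely Anapc1, Anapc4, Anapc5, Anapc7, Cdc27 and Cdc20. The others fell short, with 0 to 2 reads per library on Anapc2 (5′ UTR of 38 nt), 0 on Cdc23 (28 nt), 7 to 35 on Cdc16 and 11 to 48 on Anapc10. In control cells Anapc5 had more footprints per length on its 5′ UTR than on its CDS (log2 ratio 0.91 ± 0.516, SD, n = 5), above 88.8% of covered genes, whose median ratio was -0.89. Anapc1 was second among the 6 with 0.64 ± 0.336.

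The 5′ UTR footprints of Anapc5 varied widely within each shRNA. They were 172, 197 and 81.4 RPKM with shRNA1 and 241, 150.3 and 121 RPKM with shRNA2. Scramble shRNA gave 91.5, 154 and 80.1 RPKM and Gfp shRNA 132 and 198 RPKM. These ranges overlapped between knockdown and control, and the mean difference was 0.29 on the log2 scale (SE 0.27). As the CDS density was lower, the ratio of 5′ UTR to CDS footprints differed by 1.42 (SE 0.28), against a median of 0.33 over all covered genes. The same ratio in RNA-seq differed by 0.00 (SE 0.10) in Anapc5. These values belong to the contrast that chose Anapc5 and were not tested.

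Anapc1 rose on its 5′ UTR. Its 5′ UTR footprints were 66.3, 62.9 and 74.4 RPKM with shRNA1 and 77.3, 104 and 76.7 RPKM with shRNA2. They were 59.3, 58.3 and 33.5 RPKM with scramble shRNA and 42.9 and 48.1 RPKM with Gfp shRNA, below every knockdown lysate. Relative to the CDS the increase was 0.71 (SE 0.17, limma adjusted p = 0.0432), the only call among the 5 other covered genes. A rise in this ratio was common, as 18.1% of the 5175 covered genes were called. In the ratio too, every knockdown lysate of Anapc1 lay above every control lysate, as in 4.83% of covered genes. Such a share was not computed for 5′ UTR footprints alone.

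The call of Anapc1 was lost without Denr shRNA2 replicate 2 (0.63, adjusted p = 0.122) or Gfp shRNA replicate 1 (0.66, adjusted p = 0.108), and with either Denr shRNA alone. Anapc7, which has no ATG uORF in the transcript used, stood at 0.41 (SE 0.17, limma adjusted p = 0.114) with 16 to 45 reads per library. Anapc4 (0.21, SE 0.18), Cdc20 (0.19, SE 0.18) and Cdc27 (0.12, SE 0.26) had ratios that changed by less than the median of covered genes. In RNA-seq the same ratio was called for 0 of these 5 genes by limma and for 0.0% of covered genes. Anapc4 alone of the 5 had an unadjusted p below 0.05, as had 221 of all covered genes.

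When 5′ UTR footprints were compared without dividing by the CDS, an analysis added after the data were seen, 23.1% of covered genes were called. Anapc1 rose by 0.68 (SE 0.18, limma adjusted p = 0.0312) and Anapc7 by 0.49 (SE 0.17, limma adjusted p = 0.0651). Footprints on the 5′ UTR of Cdc27 changed by -0.17 (SE 0.22) and those of Cdc20 by -0.01 (SE 0.21).

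**Figure D4:**
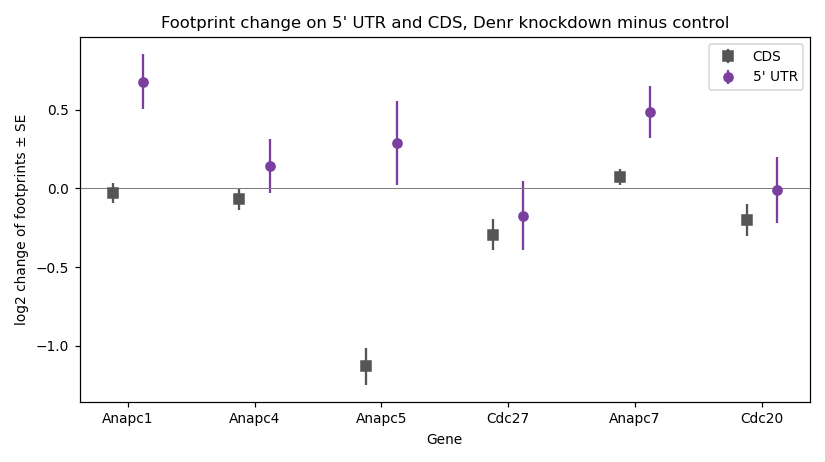
Change of footprint density on the CDS (squares) and on the 5′ UTR (circles) after Denr knockdown in the 6 covered genes, as log2 difference with its standard error. Anapc5 is at -1.13 on the CDS and 0.29 on the 5′ UTR, whereas Anapc1 is at -0.03 on the CDS and 0.68 on the 5′ UTR.

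The pattern of log2 TE over the 11 lysates was most like that of Anapc5 in Samd4b (Pearson r = 0.985), Slc41a1 (0.977), Ankrd27 (0.969), Fuca1 (0.965) and Exo5 (0.964), among 10136 other genes with a mean of at least 1 RPKM in both assays. For Anapc5 the knockdown and control lysates formed separate clusters, so the r values are given as a description with no p. TE of these 5 genes changed by -1.03, -1.05, -0.81, -0.64 and -0.54. Among the APC/C genes Anapc1 came first (r = 0.821, place 119), followed by Anapc2 (0.591), while Cdc16 (-0.720) and Cdc23 (-0.660) lay at the other end.

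The rest of the pathway was read from 5 lists with 44 genes, all measured. None was called for TE, by limma or by limma-voom, and 1 had an unadjusted p below 0.05. Their TE changes had a median of 0.00 and ran from -0.25 (SE 0.33) for Mki67 to 0.20 (SE 0.11) for Anapc11, the RING subunit. The 6 small subunits and the second coactivator (Anapc11, Anapc13, Anapc15, Anapc16, Cdc26 and Fzr1) had a median TE change of -0.05, with Fzr1, the coactivator of late mitosis and G1, at -0.24 (SE 0.09, limma adjusted p = 0.630). In CDS footprints Anapc16 was called higher by 0.28 (SE 0.09, limma adjusted p = 0.0826) and the 5 others were not called. Over all genes 5.47% were called higher.

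Of the 16 substrates, 2 were called lower in CDS footprints, Aurka, a mitotic kinase, at -0.31 (SE 0.09, limma adjusted p = 0.0532) and Tpx2, its activator on the spindle, at -0.28 (SE 0.08, adjusted p = 0.0631). Over all genes 4.55% were called lower. Aurka and Tpx2 changed by -0.26 and -0.20 in RNA and by -0.05 and -0.08 in TE, with none of these called by limma. The 16 substrates had a median footprint change of -0.09 beside 0.01 over all genes. Their median RNA change was -0.14, with 14 negative and 2 positive, beside 0.03 over all genes. In CDS footprints cyclin B1 (Ccnb1) stood at -0.17 (SE 0.08, limma adjusted p = 0.198) and securin (Pttg1) at -0.16 (SE 0.14, limma adjusted p = 0.527). Of the 10 genes of cycling cells, Top2a and Mki67 were called lower in CDS footprints, again beside 4.55% of all genes. They changed by -0.38 (SE 0.08, limma adjusted p = 0.0201) and -0.30 (SE 0.08, limma adjusted p = 0.0388). Top2a changed by -0.27 (SE 0.12) in RNA and by -0.11 (SE 0.16) in TE. Mki67 changed by -0.05 (SE 0.32) in RNA and by -0.25 (SE 0.33) in TE. None of these was called by limma, and with such SEs the footprint change of Mki67 cannot be divided between RNA and TE. Pcna and the Mcm2 to Mcm7 genes lay between -0.14 and 0.01 in CDS footprints.

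None of the 9 checkpoint and inhibitor genes or the 3 E2 enzymes was called in CDS footprints by limma. Trip13, an ATPase that disassembles the mitotic checkpoint complex, was lowest with -0.45 (SE 0.17, adjusted p = 0.132), and limma-voom called it. Its RNA changed by -0.47 and its TE by 0.01. In RNA none of the 44 was called by limma, 8 had an unadjusted p below 0.05, and limma-voom called Trip13. Over all genes 3.55% were called in RNA by limma and 16.1% had an unadjusted p below 0.05. The share of cells in mitosis was not measured, and fewer cells of one stage and less RNA or fewer ribosomes per cell cannot be told apart in these lysates.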

How the data were processed

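RPF-seq and RNA-seq were measured in the same 11 lysates (22 libraries). The deposited values are RPKM per gene on the CDS and the 5′ UTR, which the authors computed after removing adapters, aligning to GRCm38 and scaling by the upper quartile in edgeR, separately for RPF-seq and RNA-seq. Tools named in the submitters' notes include cutadapt, Bowtie2 2.2.1, TopHat2 2.0.11 and Cufflinks 2.2.1.

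From there, log2(RPKM + 0.1) was fitted over all genes with limma 3.58.1 (R 4.3.3; lmFit, eBayes with trend), 6 knockdown against 5 control lysates. TE was log2 CDS RPF minus log2 CDS RNA within a lysate. The shRNAs were compared in a model with the 4 shRNAs as groups. Adjusted p-values are Benjamini-Hochberg over all genes tested and two-sided, with a threshold of 0.1. Whole reads were recovered from the RPKM steps, and all 231352 CDS values and 228800 5′ UTR values came out whole within 0.01 reads. These reads gave the depth, the coverage rule (20 reads in 9 of 11 libraries) and a limma-voom alternative. CDS reads of the 10 genes ranged from 202 to 21617 per RNA-seq library and from 315 to 16192 per RPF-seq library, which bounds counting error only. The TE fits were run on simulated libraries with known TE changes. These held no replicate or shRNA effects, so they cannot show how the fits behave where such effects exist.

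The genes, lists and comparisons were chosen with earlier results of these data known. The genes named are the 10 genes, the members of the pathway lists, the 5 genes with the TE pattern most like Anapc5, and Denr as a check; Klhdc8a, Samd10 and Slc39a1 were named after their values were seen. Gene symbols were found for 10505 of 10516 identifiers. Near-identical copies were sought with BLAST 2.17.0 (at least 95% identity over 100 nt). Alternatives changed the pseudocount, filters, centring, variance trend, replicate block, control group, single shRNAs and single lysates. The 5 lists were chosen by their roles in the pathway. Protein sequences were not used here.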

Additional observations from a re-analysis of the deposited data

Results flagged for a closer look

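Anapc5 CDS footprints differed between the Denr shRNAs, by -0.51 on the log2 scale (shRNA2 minus shRNA1). Between the Denr shRNAs (TE, CDS footprints and RNA) and between the control shRNAs (TE only), no other call was made among the 10 genes. CDS footprints and RNA were not compared between the control shRNAs.

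Among 60 tests for a lysate that stands apart (3 measures, 10 genes, 2 arms), 6 found one, where chance flags about 1 in 20. Denr shRNA1 replicate 1 stood apart in RNA among the knockdown lysates for 3 genes. Its log2 RNA was 9.33 for Anapc5 (others 8.996 to 9.12), 5.78 for Cdc23 (others 5.62 to 5.68) and 5.44 for Cdc27 (others 6.14 to 6.55). In the same lysate the log2 TE of Anapc7 was 0.40 (others 0.61 to 0.66). Among the control lysates, log2 TE of Anapc4 was 0.10 in Gfp shRNA replicate 1 (others -0.11 to -0.06), and log2 TE of Anapc7 was 0.73 in Gfp shRNA replicate 2 (others 0.43 to 0.51). Without Denr shRNA1 replicate 1 the RNA change of Anapc5 was 0.21 in place of 0.25.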

How the results depend on the processing

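With 5 or 6 lysates per arm, standard errors of the TE changes of the 9 other genes were 0.07 to 0.20, and 5′ UTR reads were too few for 4 of the 10 genes. Anapc5 kept its direction in TE, CDS footprints and RNA in all alternatives, with TE between -1.32 and -1.45, CDS footprints between -1.06 and -1.21 and RNA between 0.21 and 0.28 when single lysates were left out. With Denr shRNA1 alone its TE change was -1.17 and its CDS footprint change -0.88, and with Denr shRNA2 alone -1.59 and -1.38.

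The number of the 9 genes called in CDS footprints (1) became 0 with a pseudocount of 0.01, with centred libraries, without the variance trend and with either Denr shRNA alone, and 2 (Cdc20 and Cdc27) with scramble shRNA as the only control; leaving out single lysates gave 0 to 1. In RNA, scramble shRNA as the only control gave 1 (Cdc20, -0.30, adjusted p = 0.0740) in place of 0. In 5′ UTR footprints relative to the CDS the number called (1) became 0 with either Denr shRNA alone and without the coverage filter, 2 (Anapc1 and Anapc7) without division by the CDS, and 0 to 2 when single lysates were left out. The cause was not tested.

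The labels do not say whether a replicate number marks a shared batch. With the mean of each shRNA taken off, same-numbered lysates of different arms correlated across genes with medians of 0.15 (RPF), 0.41 (RNA) and 0.19 (TE). For different numbers the medians were -0.08, -0.16 and -0.11. Single same-numbered pairs went down to -0.13. The lysate most like each had its own number in 9 of 11 (RPF), 7 of 11 (RNA) and 9 of 11 (TE). Lysates thus shared part of their spread by number, which the main fits leave out and the replicate block takes in. With the replicate block Anapc5 TE changed by -1.37, and 2 genes (Anapc1 and Anapc7) in place of 1 were called in relative 5′ UTR footprints. No other count of calls changed with the block.

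The difference in Anapc5 CDS footprints between the Denr shRNAs held in all alternatives (-0.59 to -0.44 without single lysates, adjusted p at most 0.0228). The uncalled differences changed sign without single lysates, in RNA between the Denr shRNAs (-0.139 to 0.00325) and in TE between the control shRNAs (-0.103 to 0.155).

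The changes below were not called and changed sign. Without single lysates they ranged, in CDS footprints, from -0.00211 to 0.110 (Anapc10), -0.0587 to 0.00150 (Anapc1), -0.0505 to 0.0218 (Cdc16) and -0.0375 to 0.00715 (Cdc23), in RNA from -0.0521 to 0.0473 (Anapc7), in TE from -0.0568 to 0.0355 (Cdc20) and -0.197 to 0.0795 (Cdc27), and in relative 5′ UTR values from -0.0580 to 0.330 (Cdc27, footprints) and -0.0422 to 0.0693 (Cdc20, RNA-seq). With Denr shRNA1 alone TE of Cdc27 was 0.0142 and RNA 0.00951 (Anapc7) and 0.00534 (Anapc10). With Denr shRNA2 alone TE of Cdc20 was 0.0440, CDS footprints 0.0655 (Anapc1) and 0.0686 (Cdc16), and relative 5′ UTR footprints -0.0399 (Cdc27). Centred libraries gave 0.000285 for Cdc20 TE, and the block 0.0119 for Anapc7 RNA.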

Other observations

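Short uORFs were looked at over all genes after the data were seen. The sets with a uORF of 9 nt follow the traits of the Anapc5 uORF and include Anapc5, so they are a description with no test. The 2862 genes with at least 1 uORF had a median TE change of -0.03 and the 3209 without one 0.01. The 260 genes with a contained uORF of 9 nt had a median of -0.05, with 65.0% of them negative (58.9% of genes with at least 1 uORF and 52.7% of all 6071), and 47 of these whose ATG has a purine at -3 and G at +4 had -0.06. In 12 genes, Anapc5 among them, such a uORF was the only uORF of the 5′ UTR. Their median TE change was -0.02. After Anapc5 at -1.38 the next was Slc39a1, a zinc transporter, at -0.13.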
